A study of Mus musculus with 12 samples.

Results

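The mitochondrial carrier family is the set of genes for the solute carriers of the SLC25 group, with the uncoupling proteins among them. Members were taken as the protein-coding genes of the count table whose symbol starts with Slc25a and a digit, plus Ucp1, Ucp2 and Ucp3. The peroxisomal carrier Slc25a17 and the carnitine-acylcarnitine carrier Slc25a20 were left out. This gave 48 of the 54532 genes in the table. The cells were C2C12 myoblasts, an established line from mouse muscle, held at 100% confluency and exposed for 24 h to perfluorooctanesulfonate (PFOS, a persistent fluorinated surfactant) at 0, 2 or 6 µM. Each dose had 4 libraries of messenger RNA, 12 in all, from the same line with no further treatment named. Nothing in the labels says that replicates were separate cultures, and the spread behind the p-values is that between libraries, possibly a technical one.

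Carriers of this family sit in the inner mitochondrial membrane, with a few exceptions, and move nucleotides, phosphate, organic acids, amino acids, cofactors and metal ions between the cytosol and the matrix. The ADP/ATP carriers exchange matrix ATP for cytosolic ADP, the phosphate carrier brings in phosphate for ATP synthesis, and the citrate carrier exports citrate, from which the cytosol makes acetyl-CoA for lipid synthesis. The uncoupling proteins are carriers of the same fold. Ucp1 is known for heat production in brown fat, Ucp3 for its expression in mature skeletal muscle and Ucp2 for its expression in many tissues. In muscle and other tissues Ucp2 and Ucp3 are known targets of the fatty acid sensing PPAR receptors.

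Library totals ranged from 30206155 to 50351082 counts. Myoblast markers were present, with Des at 180 TPM and Myod1 at 36.7 TPM at 6 µM against 212 and 50.2 TPM at 0 µM, while Pax7 was at 0.0884 against 0.0861 TPM (means; TPM is the transcripts-per-million unit, a level per gene length). The summed level of the 7 myoblast markers was 320 to 394 TPM at 0 µM, 292 to 322 TPM at 2 µM and 273 to 304 TPM at 6 µM. These sums did not overlap between 6 and 0 µM, and their part in the results was not tested. Of the 9 adipocyte markers, Adipoq and Prdm16 had no count in any library, and the summed level was 5.63 to 7.64 TPM at 6 µM and 5.10 to 7.46 TPM at 0 µM. In bulk samples, a change in the share of cells of a type and a change in RNA per cell cannot be told apart. Macrophage, endothelial and hepatocyte markers summed to at most 3.64, 4.87 and 0.269 TPM in any library. The neuronal list summed to 42.1 to 49.9 TPM at 6 µM and 37.8 to 47.2 TPM at 0 µM. Nearly all of it came from Tubb3 and Syt1, with means of 36.5 and 10.3 TPM at 6 µM. Rbfox3 and Snap25 averaged 0.00581 and 0.0222 TPM there. Most of the adipocyte and endothelial sums came from Fabp4 and Cdh5, with means of 5.23 and 4.21 TPM at 6 µM. The libraries farthest from the mean of their dose over all tested genes were 0 µM replicate 1 and 6 µM replicates 2 and 3, and counts without these 3 libraries are also given.

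Of the 48 members, 39 passed the count filter and were tested. At 0 µM their mean levels ran from 1.93 TPM for Slc25a23 to 1163 TPM for Slc25a5. The 3 most abundant members took 62.9% ± 0.529 of the family's summed TPM at 0 µM, 61.8% ± 0.502 at 2 µM and 61.8% ± 0.183 at 6 µM (SD, n = 4). At 0 µM these 3 were the ADP/ATP carriers Slc25a5, at 1163 ± 19.0 TPM, and Slc25a4, at 886 ± 14.6 TPM, and the phosphate carrier Slc25a3, at 319.7 ± 9.85 TPM. Slc25a4 is known as the muscle and heart form of the ADP/ATP carrier, and in these cells Slc25a5 stood above it in TPM in every library. TPM takes account of gene length, which is 2353 bases for Slc25a4 and 1646 bases for Slc25a5. In CPM, which does not, Slc25a4 was the higher at 0 µM, with means of 677 ± 23.3 against 621 ± 17.3 for Slc25a5. At 6 µM the CPM means were 635 for Slc25a4 and 647 for Slc25a5. Their order at 0 µM thus depends on the unit. The summed level of the family was 3764 ± 63.1 TPM at 0 µM, 3576 ± 44.0 TPM at 2 µM and 3664 ± 13.6 TPM at 6 µM. In CPM the libraries summed to 3458 to 3563 at 0 µM, 3443 to 3528 at 2 µM and 3575 to 3601 at 6 µM. The order of 0 and 6 µM thus depends on the unit. Next came the glutathione carrier Slc25a39 at 246 ± 10.2 TPM and the oxoglutarate-malate carrier Slc25a11 at 183 ± 6.21 TPM. The citrate carrier Slc25a1, at 176 ± 10.5 TPM, came after Slc25a11, and the libraries of the 2 genes overlapped. Ucp2 ranked 19 at 20.1 ± 2.46 TPM and Slc25a34 ranked 38 at 2.35 ± 0.678 TPM.

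**Figure D1:**
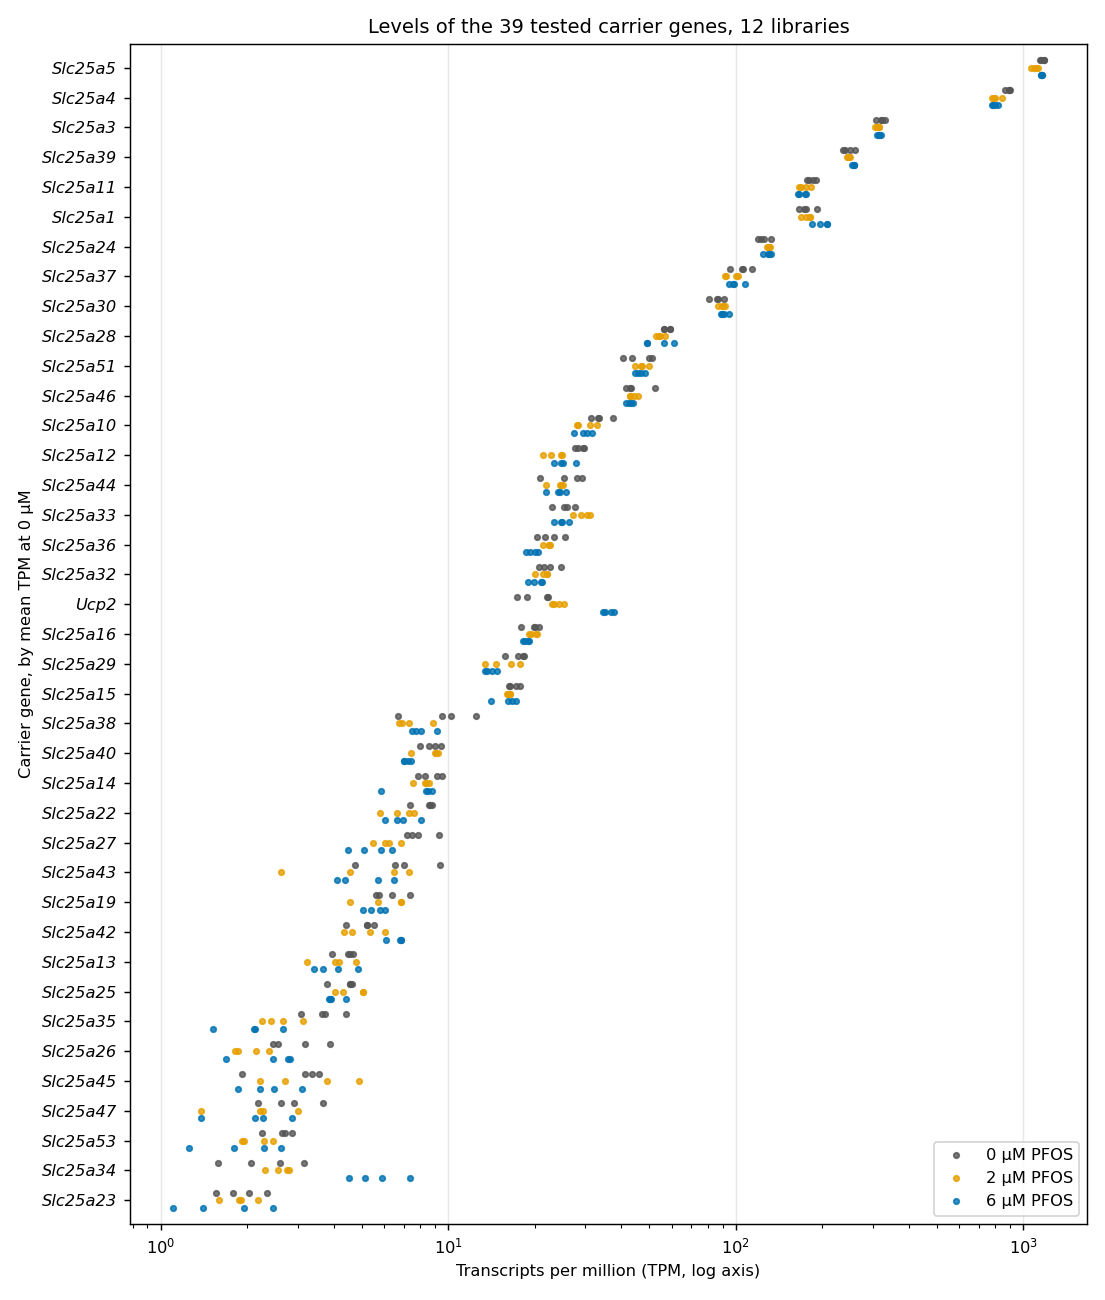
Level of each of the 39 tested carrier genes in every library, in TPM on a log axis, with the genes in order of their mean at 0 µM and the doses in 3 colours. Slc25a5 and Slc25a4 lead at every dose, and for Ucp2 and Slc25a34 the 4 libraries at 6 µM lie apart from the others.

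The other 9 members had too few counts to test. Slc25a31, the ADP/ATP carrier known from germ cells, and Slc25a41 had no count in any of the 12 libraries. Ucp1 had 2 counts over the 4 libraries at 0 µM, 2 at 2 µM and 8 at 6 µM, from 1, 1 and 2 libraries. Ucp3 had 17 counts at 6 µM, of which 14 came from replicate 3 and 3 from replicate 1, and none at 2 or 0 µM. A count of 0 among the 147222716 counts at 0 µM allows a level of up to 0.0201 CPM (the counts-per-million unit; from 3 counts over the group, counting error only). The bound takes counts as independent. Among low counts even values outnumbered odd ones, and if counts are not independent the bound is higher. The oxodicarboxylate carrier Slc25a21 had 4 counts at 6 µM and 0 at 0 µM, and Slc25a48 had 7 and 0. The remaining 3, Slc25a54, Slc25a2 and Slc25a18, had 11, 24 and 8 counts at 6 µM against 28, 23 and 30 at 0 µM. No difference was detectable at this depth for these genes.

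At 6 µM the carriers that changed most were the orphan carrier Slc25a34, which rose 2.55-fold, and Ucp2, which rose 1.88-fold. The coenzyme A carrier Slc25a42 rose 1.37-fold and the citrate carrier Slc25a1 rose 1.18-fold. Smaller increases were called for Slc25a30, a relative of the uncoupling proteins also named KMCP1, at 1.11-fold, and for the glutathione carrier Slc25a39, at 1.10-fold. Slc25a35, the closest relative of Slc25a34 in the family, fell 1.68-fold, and Slc25a27, also named UCP4, fell 1.39-fold. In total, 6 of 39 tested members rose and 2 fell at 6 against 0 µM (edgeR's quasi-likelihood test, Benjamini-Hochberg adjusted p under 0.05 over all 16038 tested genes). Over all tested genes 4.58% rose and 3.66% fell, beside 15.4% and 5.13% of the tested members. The median log2 fold change was -0.07 over the members and -0.02 over all tested genes. Without the 3 libraries named above, 4 members rose (Slc25a34, Ucp2, Slc25a1 and Slc25a30) and none fell, by edgeR's test. Over all tested genes 408 rose and 302 fell there, against 735 and 587 with all 12 libraries.

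**Figure D2:**
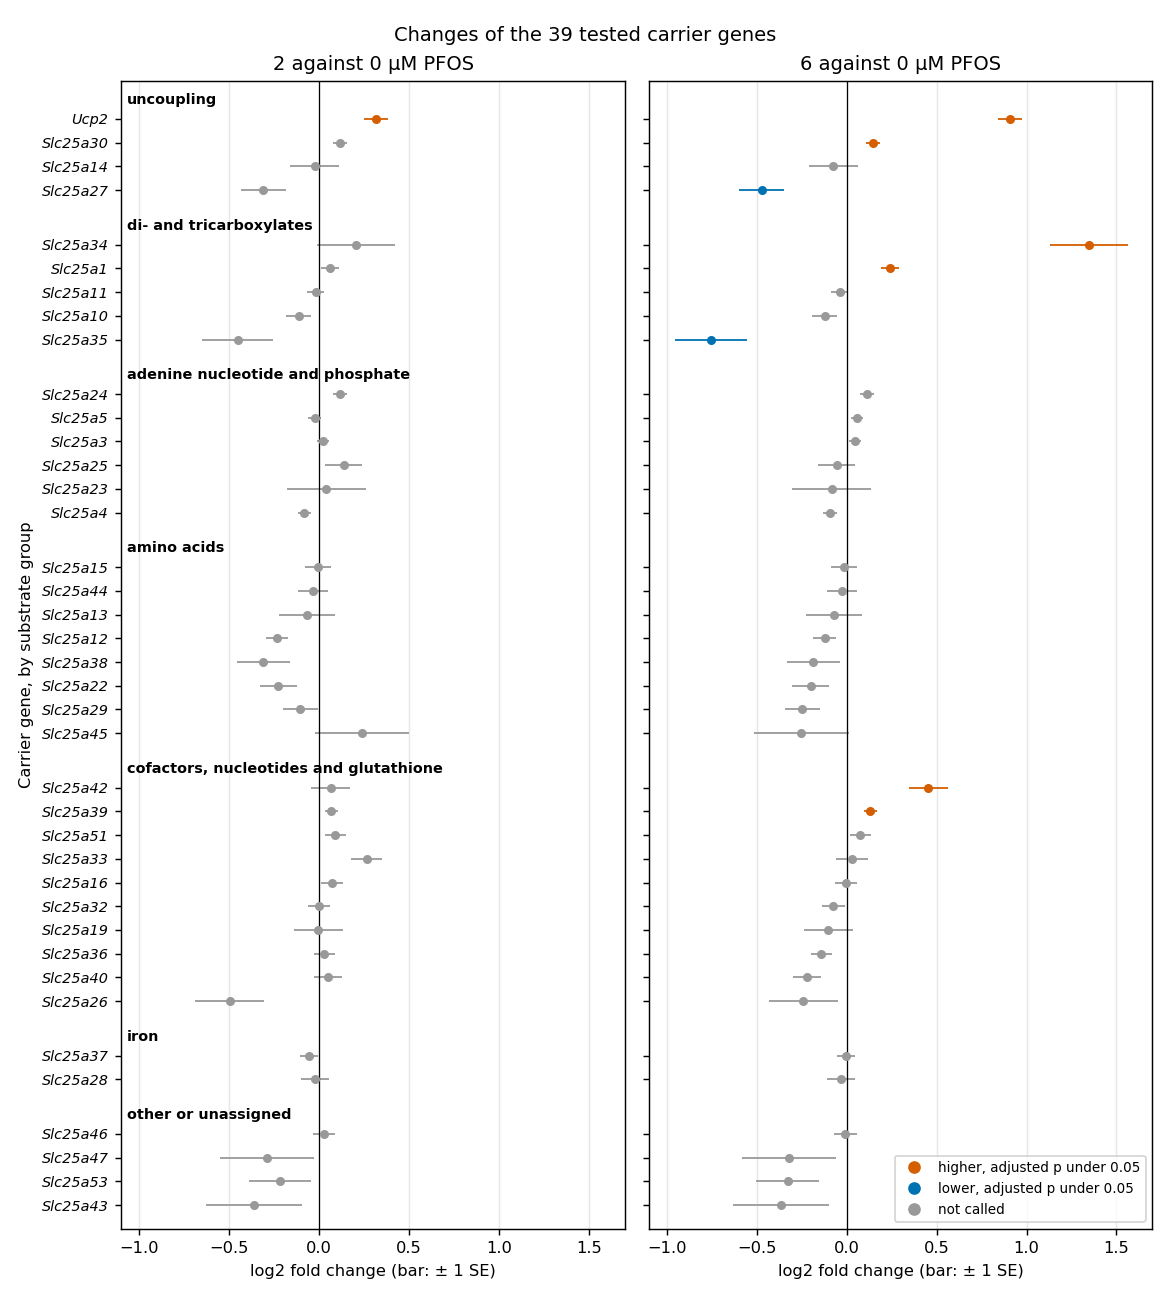
Log2 fold changes of the 39 tested carriers with 1 standard error (SE) to each side, at 2 against 0 µM in the left panel and at 6 against 0 µM in the right panel. Genes are in substrate groups, and Slc25a34, whose substrate is not settled, is placed with the di- and tricarboxylate carriers. Coloured points have an adjusted p under 0.05. At 6 µM the points for Slc25a34 and Ucp2 lie farthest to the right, at 1.35 and 0.91, and Slc25a35 lies farthest to the left, at -0.75; both panels use the same libraries at 0 µM.

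Slc25a34 (ENSMUSG00000040740) spans 141618824 to 141623821 of chromosome 4 on the minus strand (GRCm38). Its transport substrate is not settled. It belongs by sequence to the carriers of organic acids. In CPM, with library sizes scaled by TMM, the libraries held 1.35, 2.36, 1.80 and 2.64 at 0 µM, 2.30, 2.52, 2.06 and 2.50 at 2 µM and 4.15, 4.65, 6.70 and 5.28 at 6 µM. Every library at 6 µM was above every other library, while the values at 2 µM lay within the range at 0 µM. The log2 fold change at 6 against 0 µM was 1.35 (SE 0.216, adjusted p = 0.000315 by edgeR). At 6 against 2 µM it was 1.14 (SE 0.212, adjusted p = 0.00622 by edgeR). At 2 against 0 µM it was 0.20 (SE 0.219, adjusted p = 0.742 by edgeR). The gene had 44 to 290 counts in a library, and its call at 6 µM held in all alternatives, including without the 3 libraries.

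Ucp2 (ENSMUSG00000033685) spans 100493337 to 100502020 of chromosome 7 on the plus strand (GRCm38). The libraries held 38.6, 44.7, 50.8 and 48.4 CPM at 0 µM, 59.7, 57.6, 54.1 and 55.8 CPM at 2 µM and 90.1, 83.4, 87.9 and 81.3 CPM at 6 µM. The 3 doses did not overlap, and the level was higher at each step of dose. Ucp2 was the one member that rose in all 3 comparisons. It rose by 0.32 on the log2 scale at 2 against 0 µM (SE 0.0687, adjusted p = 0.0158 by edgeR), by 0.91 at 6 against 0 µM (SE 0.0686, adjusted p = 1.04e-08 by edgeR) and by 0.59 at 6 against 2 µM (SE 0.0676, adjusted p = 2.8e-05 by edgeR). The call at 2 µM ended without 0 µM replicate 2 (adjusted p = 0.0532) and without 2 µM replicate 4 (adjusted p = 0.0529), by edgeR's test. Its exons share 305 bases with Dnajb13 on the other strand, and Dnajb13 had 15 counts in the 12 libraries together.

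Slc25a42 (ENSMUSG00000002346), which brings coenzyme A into the matrix in exchange for adenine nucleotides, spans 70184340 to 70212305 of chromosome 8 on the minus strand (GRCm38). It held 9.98, 8.95, 10.2 and 10.4 CPM at 0 µM, 9.38, 12.2, 10.8 and 8.86 CPM at 2 µM and 13.9, 12.3, 14.0 and 13.8 CPM at 6 µM. The libraries at 6 µM lay above all others, although 6 µM replicate 2 and 2 µM replicate 2 differed by little. The log2 fold change at 6 against 0 µM was 0.45 (SE 0.109, adjusted p = 0.0106 by edgeR), and adjusted p = 0.052 without the 3 libraries named above. At 6 against 2 µM it was 0.39, with an adjusted p of 0.086 by edgeR, which DESeq2 called.

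Slc25a1 (ENSMUSG00000003528), the citrate carrier, spans 17925223 to 17928219 of chromosome 16 on the minus strand (GRCm38). Its libraries held 115, 129, 121.5 and 129.8 CPM at 0 µM, 132, 133, 128 and 124 CPM at 2 µM and 146, 135.5, 154 and 151 CPM at 6 µM. In CPM the libraries at 6 µM did not overlap with either other dose, and those at 2 and 0 µM overlapped with each other. In TPM 6 and 0 µM did overlap, with 6 µM replicate 2 at 184.6 and 0 µM replicate 4 at 191.1. It rose by 0.24 on the log2 scale at 6 against 0 µM (SE 0.0496, adjusted p = 0.00322 by edgeR), a call that held in all alternatives. At 6 against 2 µM the log2 fold change was 0.18 with an adjusted p of 0.0849 by edgeR's test, and DESeq2 called it.

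The 250 bases before the start of these 4 genes are shown because they are the members that rose most at 6 µM, and so that the letters of known response elements can be read in place. They are RefSeq promoter windows on GRCm38.p6, 5′ to 3′ on the strand of the gene. The windows are chr4:141623835-141624084 (minus) for Slc25a34, chr7:100493108-100493357 (plus) for Ucp2, chr8:70212282-70212531 (minus) for Slc25a42 and chr16:17928220-17928469 (minus) for Slc25a1. Capitals mark matches, on either strand, to the motifs spelled out in the next paragraph.
Slc25a34: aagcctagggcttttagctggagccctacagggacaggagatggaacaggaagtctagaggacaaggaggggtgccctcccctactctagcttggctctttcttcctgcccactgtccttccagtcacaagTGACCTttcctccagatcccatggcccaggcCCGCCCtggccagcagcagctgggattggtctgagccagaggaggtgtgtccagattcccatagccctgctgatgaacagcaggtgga
Ucp2: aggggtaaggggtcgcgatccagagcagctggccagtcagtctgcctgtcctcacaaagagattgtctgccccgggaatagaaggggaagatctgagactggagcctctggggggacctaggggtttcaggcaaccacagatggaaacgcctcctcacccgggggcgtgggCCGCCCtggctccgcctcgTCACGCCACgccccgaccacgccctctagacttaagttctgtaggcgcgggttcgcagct
Slc25a42: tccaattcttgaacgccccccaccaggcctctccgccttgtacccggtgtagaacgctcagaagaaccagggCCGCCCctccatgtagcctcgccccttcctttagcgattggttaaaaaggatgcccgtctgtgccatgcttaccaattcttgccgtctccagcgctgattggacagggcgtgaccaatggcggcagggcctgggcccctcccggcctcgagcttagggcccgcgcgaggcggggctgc
Slc25a1: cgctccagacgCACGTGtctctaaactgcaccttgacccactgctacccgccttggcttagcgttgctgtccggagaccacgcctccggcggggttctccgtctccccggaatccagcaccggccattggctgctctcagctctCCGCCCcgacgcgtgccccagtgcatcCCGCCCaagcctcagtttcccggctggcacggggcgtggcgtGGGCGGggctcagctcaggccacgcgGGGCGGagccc

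Of the 48 members, 37 were matched in the promoter table, with 47 windows of 250 bases before to 50 bases after a start. Both strands were searched. The PPAR response element as a direct repeat, made of 2 copies of AGGTCA in the same direction with 1 base of any kind between them, was in none of the 47 windows, and in 0.04% of all 32851 windows. Its half-site AGGTCA, which is a part of that repeat, was in 6 of the 47 and in 16.26% of all. Slc25a34 carries 1 such half-site, at bases -119 to -114 and read on the other strand, and Ucp1 and Ucp3 carry it too. The sterol response element TCACNCCAC, bound by SREBP, was in 2 of the 47, those of Ucp2 and Slc25a18, and in 1.24% of all windows. In Ucp2 it spans bases -60 to -52. The E-box CACGTG was in 8 of the 47 and in 7.15% of all, with 1 match in Slc25a1. The GC box GGGCGG was in 37 of the 47 and in 35.66% of all, with 4 matches in Slc25a1 and 1 each in the printed bases of Slc25a34, Ucp2 and Slc25a42. The share of G and C in the 250 bases before the start had a median of 57.6% over the members and 52.4% over all promoters. The ATF4 element TGATGNAA and the extended half-site TCAAGGTCA were in none of the 47, and in 3.97% and 0.42% of all windows. A match describes letters in a window and not a bound site.

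**Figure D3:**
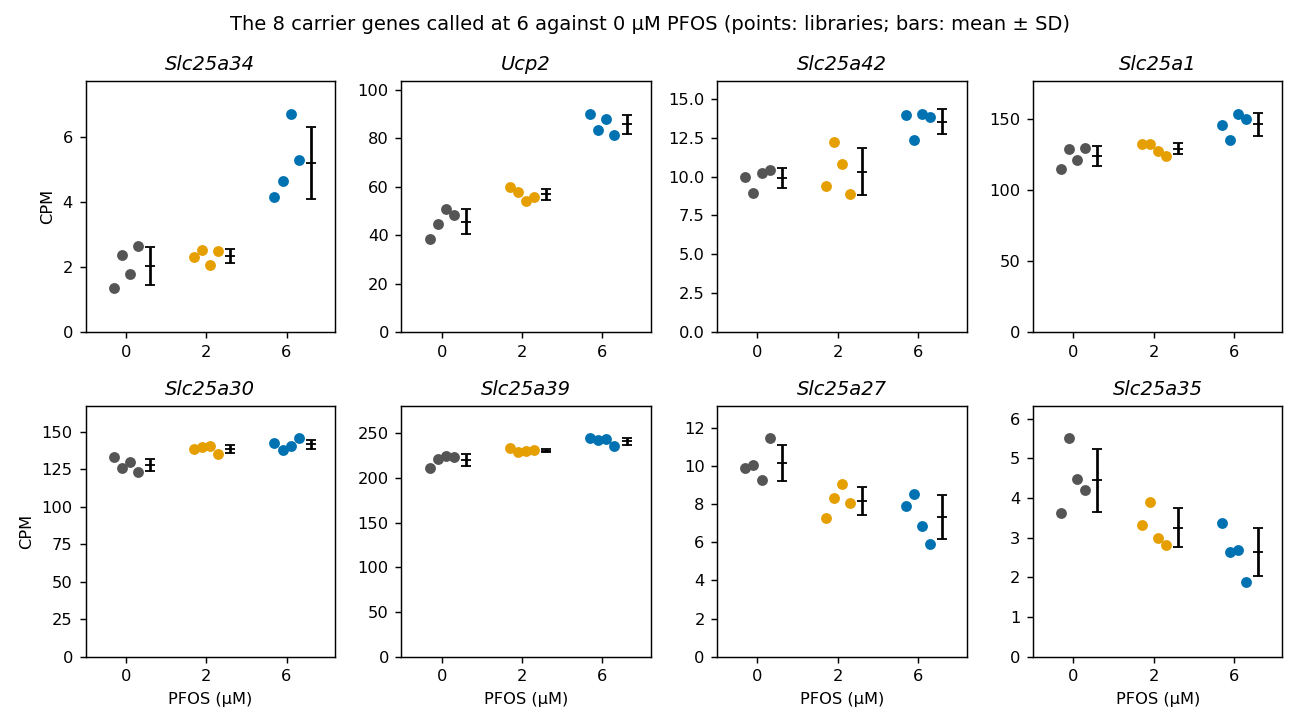
CPM of the 8 carriers called at 6 against 0 µM, by PFOS dose, with a point for each library and the mean ± SD of the 4 libraries to its right; each vertical axis starts at 0. Slc25a34 is nearly level between 0 and 2 µM and higher at 6 µM, Ucp2 is higher at each step, and Slc25a27 and Slc25a35 are lower at 6 than at 0 µM; neither was called at 2 against 0 µM.

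Among the uncoupling proteins and their relatives, 4 of 6 were tested, of which 2 rose and 1 fell at 6 µM. Over all tested genes 4.58% rose and 3.66% fell at 6 against 0 µM. Slc25a30 held 132.8, 125.7, 129.4 and 123.1 CPM at 0 µM, 139, 139.9, 141 and 135 CPM at 2 µM and 142, 138, 140.2 and 145 CPM at 6 µM. In CPM the libraries at 0 µM lay below all others, and those at 2 and 6 µM overlapped. In TPM 0 µM replicate 1, at 91.0, lay within the ranges at 2 µM (86.7 to 91.6) and 6 µM (88.8 to 94.6). The log2 fold change was 0.15 at 6 against 0 µM (SE 0.0413, adjusted p = 0.0294 by edgeR) and 0.12 at 2 against 0 µM (adjusted p = 0.166 by edgeR; called by DESeq2). The call at 6 µM was lost in 10 alternatives, with adjusted p values from 0.0522 to 0.0907. The SD at 0 µM was 3.32% of the mean.

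Slc25a27, a carrier known mainly from brain, held 9.89, 10.03, 9.25 and 11.4 CPM at 0 µM, 7.28, 8.31, 9.06 and 8.06 CPM at 2 µM and 7.91, 8.53, 6.87 and 5.92 CPM at 6 µM. No library at 2 or 6 µM reached the lowest library at 0 µM. The log2 fold change was -0.47 at 6 against 0 µM (SE 0.125, adjusted p = 0.0208 by edgeR) and -0.31 at 2 against 0 µM (SE 0.125, adjusted p = 0.238 by edgeR). The call at 6 µM ended without 0 µM replicate 4, without 6 µM replicate 3 or 4, and without the 3 libraries, with adjusted p values from 0.057 to 0.0749 by edgeR. Slc25a14, also named UCP5, had a log2 fold change of -0.07 at 6 against 0 µM, with an adjusted p of 0.81 by edgeR.

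The group of di- and tricarboxylate carriers had 5 tested members of 6, of which 2 rose and 1 fell at 6 µM, beside 4.58% and 3.66% of all tested genes. Slc25a34, whose substrate is not settled, and its closest relative Slc25a35 were counted in this group. Besides Slc25a34 and Slc25a1, the member called was Slc25a35 (ENSMUSG00000018740, chromosome 11, 68968131 to 68974365, plus strand, GRCm38). It held 3.61, 5.50, 4.47 and 4.20 CPM at 0 µM, 3.31, 3.91, 3.00 and 2.81 CPM at 2 µM and 3.37, 2.64, 2.68 and 1.88 CPM at 6 µM. The libraries at 6 µM lay below those at 0 µM, with 6 µM replicate 1 close to 0 µM replicate 1, and 2 µM overlapped with both. The log2 fold change was -0.75 at 6 against 0 µM (SE 0.200, adjusted p = 0.0205 by edgeR), and adjusted p = 0.0891 without 0 µM replicate 2, 0.0689 without 6 µM replicate 4 and 0.0701 without the 3 libraries. Its exons share 1151 bases, 31.3% of its length, with Rangrf on the other strand. That is 90.7% of the length of Rangrf, which had 17 counts in the 12 libraries together. The strand setting of the counting is not given in the sources used here, so the reads of Slc25a35 and Rangrf may not be told apart. Slc25a11 held 119.9, 129, 132 and 124 CPM at 0 µM, 126, 121, 118 and 132 CPM at 2 µM and 119, 126, 128 and 118 CPM at 6 µM, with all doses overlapping. Slc25a10, the dicarboxylate carrier, and Slc25a11 had log2 fold changes of -0.12 and -0.04 at 6 against 0 µM (adjusted p = 0.335 and 0.702 by edgeR).

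The carriers of adenine nucleotides and phosphate are the abundant core of the family, and none of the 6 tested (of 9) was called in any comparison by edgeR with all 12 libraries. At an unadjusted p under 0.05, edgeR had 1 higher and 1 lower at 6 against 0 µM, DESeq2 called 1 higher and limma-voom called none. The same counts, 1 higher and 1 lower, were found at 2 against 0 µM, and at 6 against 2 µM 1 higher, while limma-voom called none in either. The gene that DESeq2 called at 6 and at 2 against 0 µM was Slc25a24, a calcium-regulated carrier of ATP-Mg and phosphate. Slc25a24 held 145, 139, 137 and 135 CPM at 0 µM, 150.9, 152.5, 149.7 and 150.6 CPM at 2 µM and 147, 151, 152 and 153 CPM at 6 µM. In CPM the libraries at 0 µM lay below all others. In TPM 0 µM replicate 1 was the highest, at 132.59 against at most 131.09 at 2 µM and 132.56 at 6 µM. Its log2 fold changes were 0.11 at 6 and 0.12 at 2 against 0 µM (adjusted p = 0.0818 and 0.146 by edgeR). Without 0 µM replicate 1 edgeR called it higher at 6 against 0 µM (adjusted p = 0.0392). Slc25a5 held 620.2, 646, 611 and 608 CPM at 0 µM, 604, 629.6, 589 and 619 CPM at 2 µM and 651, 648, 652 and 636 CPM at 6 µM. Slc25a4 held 668, 712, 664 and 664 CPM at 0 µM, 673, 637, 615 and 633 CPM at 2 µM and 643, 623, 629 and 646 CPM at 6 µM. The 6 and 0 µM libraries overlapped for Slc25a5 and did not for Slc25a4. At 6 against 0 µM the log2 fold changes were 0.06 for Slc25a5 and -0.09 for Slc25a4, with SEs of 0.0349 and 0.037 (adjusted p = 0.361 and 0.138 by edgeR). Slc25a3 held 566, 577, 596 and 563 CPM at 0 µM, 592, 594, 575 and 574 CPM at 2 µM and 591, 595, 606 and 588 CPM at 6 µM, with overlap, and a log2 fold change of 0.05 at 6 against 0 µM (adjusted p = 0.452 by edgeR). Of the processed copies of ADP/ATP carriers in the table, Slc25a5-ps had 4 counts over the 12 libraries, and those of Slc25a4 and Slc25a31 had 0.

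The amino acid carriers had 8 tested members of 11, and edgeR called none of them in any comparison with TMM scaling, the count filter and all 12 libraries. At 6 against 0 µM all 8 had log2 fold changes below 0, from -0.25 to -0.02 with a median of -0.15, against -0.02 over all tested genes. Of all 39 tested members 28 were below 0, among them both iron carriers, each with an SE larger than its distance from 0. The 4 members of the other or unassigned group were below 0 too, while Slc25a34, counted with the di- and tricarboxylate carriers, was above it. No share of all tested genes below 0 is given, and their median was itself below 0. At an unadjusted p under 0.05 1 amino acid carrier was lower by edgeR, and DESeq2 and limma-voom called none. The aspartate-glutamate carrier Slc25a12, a part of the malate-aspartate shuttle, came closest at the lower dose. It held 69.01, 73.7, 66.1 and 65.0 CPM at 0 µM, 61.3, 61.8, 56.3 and 53.6 CPM at 2 µM and 63.3, 58.0, 61.9 and 68.6 CPM at 6 µM. The libraries at 2 µM lay below those at 0 µM, and those at 6 µM overlapped with both. At 2 against 0 µM its log2 fold change was -0.23 (SE 0.0628, adjusted p = 0.0507 by edgeR), and it was called lower in 7 alternatives, DESeq2 and limma-voom among them (adjusted p from 0.0137 to 0.0479). Among the amino acid carriers edgeR had 3 lower at 2 against 0 µM at an unadjusted p under 0.05, and none at 6 against 2 µM, where DESeq2 and limma-voom called none. Slc25a12 was at -0.12 at 6 against 0 µM and 0.11 at 6 against 2 µM (adjusted p = 0.27 and 0.491 by edgeR). Slc25a29, a carrier of basic amino acids, was at -0.25 at 6 against 0 µM (SE 0.0978, adjusted p = 0.135 by edgeR), with groups that did not overlap. The ornithine carrier Slc25a15 and the branched-chain amino acid carrier Slc25a44 were at -0.02 and -0.03, with SEs of 0.0708 and 0.0834.

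The carriers of cofactors, nucleotides and glutathione had 10 tested members of 10, and 2 rose at 6 against 0 µM, Slc25a42 and Slc25a39. None fell, and over all tested genes 4.58% rose and 3.66% fell. Slc25a39 held 211, 221, 225 and 224 CPM at 0 µM, 233, 229, 229.7 and 231 CPM at 2 µM and 244, 242, 243 and 235 CPM at 6 µM. In CPM the 3 doses did not overlap. In TPM the libraries at 0 µM ran from 236 to 259. That range spanned those at 2 µM (245 to 251) and reached those at 6 µM (254 to 259). Its log2 fold change was 0.13 at 6 against 0 µM (SE 0.0374, adjusted p = 0.0299 by edgeR), with adjusted p values from 0.0537 to 0.221 in the 9 alternatives that ended the call. Slc25a40, the other glutathione carrier of the family, held 20.2, 20.0, 20.8 and 20.9 CPM at 6 µM against 24.2, 22.7, 25.9 and 22.6 CPM at 0 µM, with no overlap. Its log2 fold change was -0.22 (SE 0.0793, adjusted p = 0.0937 by edgeR). At 6 against 2 µM it was -0.27 (adjusted p = 0.11 by edgeR, and 0.0361 without 2 µM replicate 1). The pyrimidine nucleotide carrier Slc25a33 averaged 15.6 ± 1.66 CPM at 0 µM, 18.8 ± 1.06 CPM at 2 µM and 15.9 ± 0.764 CPM at 6 µM (SD, n = 4). Its log2 fold changes were 0.26 at 2 against 0 µM and -0.24 at 6 against 2 µM, and neither passed (adjusted p = 0.134 and 0.237 by edgeR). The S-adenosylmethionine carrier Slc25a26 had the lowest log2 fold change of the family at 2 against 0 µM, -0.50 (SE 0.192, adjusted p = 0.214 by edgeR).

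The iron carriers Slc25a37 and Slc25a28, known as mitoferrins, were not called at 6 against 0 µM (adjusted p = 0.988 and 0.857 by edgeR). The log2 fold change of Slc25a28 was -0.03, and that of Slc25a37 was within 0.01 of 0 (SEs 0.0768 and 0.0495). The 4 members of the other or unassigned group had values from -0.37 to -0.01. In this group Slc25a46, an outer membrane protein of mitochondrial dynamics, was at -0.01 (SE 0.0629), while Slc25a43, Slc25a47 and Slc25a53 had SEs of 0.174 to 0.267. For neither group did edgeR, DESeq2 or limma-voom call a member, and none had an unadjusted p under 0.05 by these tools at 6 against 0 µM. Over all tested members the SE at 6 against 0 µM ran from 0.0339 for Slc25a3 to 0.267 for Slc25a43.

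At 2 against 0 µM, 1 of 39 tested members rose, Ucp2, and none fell by edgeR, beside 1.61% and 0.742% of all tested genes. At an unadjusted p under 0.05 4 members were higher and 7 lower, DESeq2 called 3 higher and 1 lower, and limma-voom called 1 of each. Over all genes DESeq2 called 530 higher and 214 lower, and limma-voom 297 and 133. The median log2 fold change was -0.01 over the members and over all tested genes. At 6 against 2 µM, 2 members rose, Slc25a34 and Ucp2, and none fell by edgeR, beside 0.561% and 0.549% of all genes. At an unadjusted p under 0.05 5 were higher and 3 lower, and DESeq2 called 4 higher and limma-voom 2. Over all genes DESeq2 called 220 higher and 197 lower, and limma-voom 127 and 110. For counts at an unadjusted p under 0.05, here and in the groups and lists, no share over all genes is given. Both of the genes called at 6 against 2 µM held that call in all alternatives.

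Within a library, the ratio of 2 related carriers asks whether relatives moved differently. Of 14 pairs listed, 11 had both members tested. The log2 ratio of Slc25a34 to Slc25a35 was 0.86 ± 0.467 at 6 µM and -0.98 ± 0.267 at 0 µM (SD, n = 4), a difference of 1.84 with p = 0.0286 by an exact two-sided permutation test, the smallest p that 4 against 4 libraries can give. The log2 ratio of Slc25a4 to Slc25a5 was -0.03 ± 0.0358 at 6 µM and 0.12 ± 0.0137 at 0 µM, a difference of -0.15 with an exact permutation p of 0.0286. That of Slc25a39 to Slc25a40 was 3.53 ± 0.0471 at 6 µM and 3.18 ± 0.0988 at 0 µM, a difference of 0.35 with the same exact p. In each of these pairs the groups did not overlap. After adjustment over the 11 pairs the p of each was 0.105. With the smallest p that 4 against 4 libraries allow, no small number of the 11 pairs could have passed after adjustment. The other 8 pairs overlapped, with differences from -0.23 to 0.23 and exact permutation p values from 0.0857 to 0.714.

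**Figure D4:**
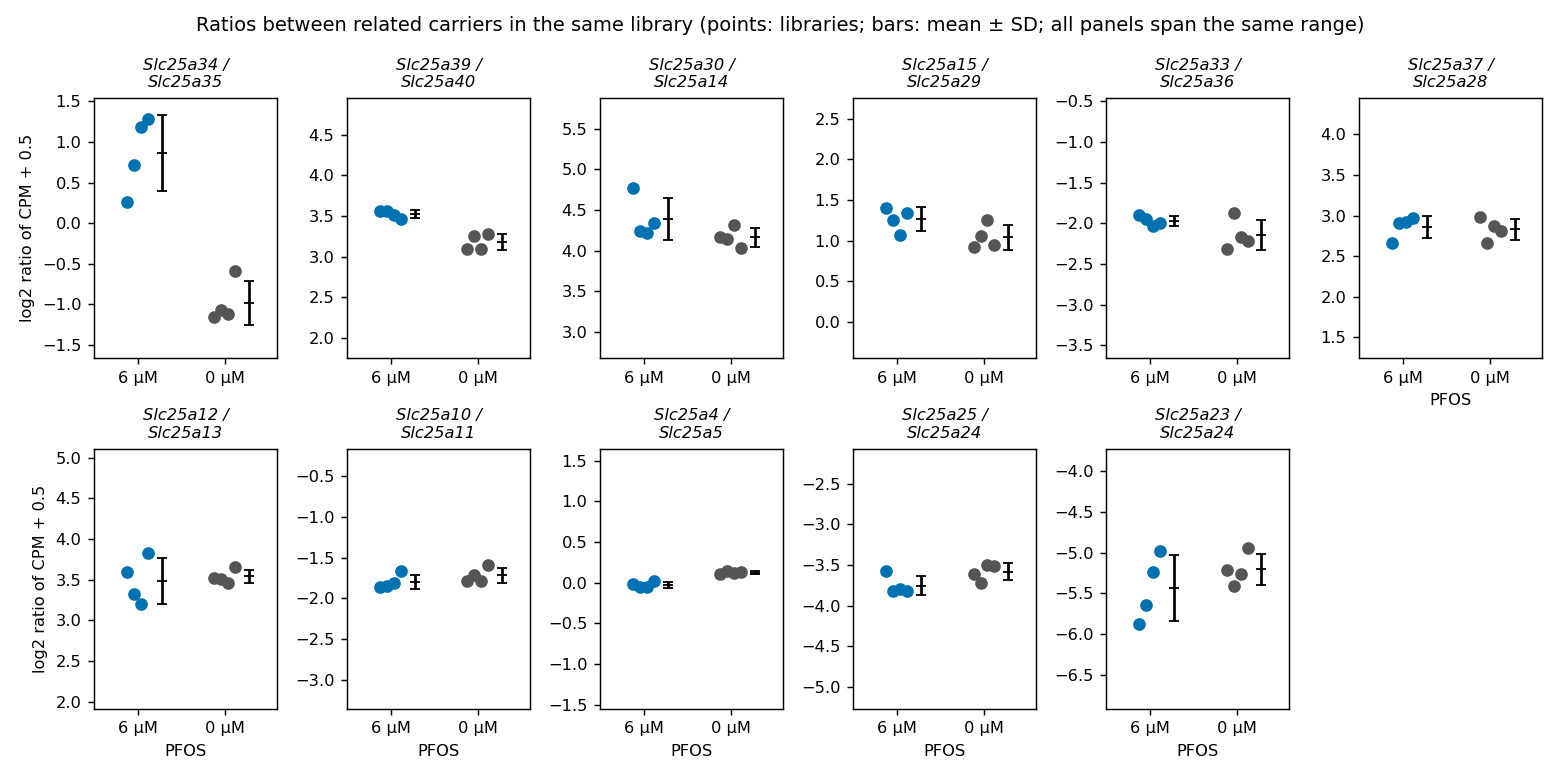
Log2 ratio of the CPM (0.5 added) of 2 related carriers in each library, at 6 µM to the left of 0 µM in each panel, with the mean ± SD of 4 libraries beside the points and the same span on every vertical axis. The ratio of Slc25a34 to Slc25a35 differs most, and the groups also lie apart, by less, for Slc25a39 to Slc25a40 and for Slc25a4 to Slc25a5.

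Genes that work beside the carriers were read from 3 lists. Of 9 tested enzymes of the malate-aspartate, glycerol phosphate and citrate shuttles, 2 rose at 6 against 0 µM and none fell by edgeR (over all tested genes 4.58% rose and 3.66% fell), with 6 higher at an unadjusted p under 0.05. DESeq2 called 5 of them higher and limma-voom 3. Over all genes edgeR called 735 of 16038 higher, limma-voom 794 of the same 16038 and DESeq2 1049 of the whole table of 54532. Acly, which splits the citrate that Slc25a1 exports, averaged 430.4 ± 31.3 CPM at 6 µM and 354 ± 21.7 CPM at 0 µM (SD, n = 4), a log2 fold change of 0.28 (adjusted p = 0.00139 by edgeR). Acly also rose by 0.26 at 6 against 2 µM, where it averaged 359 ± 16.6 CPM at 2 µM (adjusted p = 0.0109 by edgeR). Got2, the mitochondrial aspartate aminotransferase, averaged 408 ± 7.55 CPM at 6 µM and 370.1 ± 5.74 CPM at 0 µM, a log2 fold change of 0.14 (adjusted p = 0.0143 by edgeR), with adjusted p = 0.0501 without 6 µM replicate 1. Got1, its cytosolic partner, rose at 2 µM, to 168 ± 13.8 CPM against 138 ± 11.2 CPM at 0 µM, a log2 fold change of 0.28 (adjusted p = 0.0201 by edgeR) whose call ended without 0 µM replicate 2 (0.0865) or 4 (0.0574) or 2 µM replicate 4 (0.119). At 6 against 0 µM it was 0.18, with 157 ± 11.1 CPM at 6 µM against 138 ± 11.2 CPM at 0 µM (adjusted p = 0.0825 by edgeR); it was called by DESeq2 (0.0397), with no count filter (0.00737) and without 6 µM replicate 4 (0.0474).

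Of 16 other channels and carriers of mitochondria, 1 rose and 2 fell at 6 against 0 µM by edgeR, where 4.58% of all tested genes rose and 3.66% fell. The outer membrane channel gene Vdac1 averaged 725 ± 18.6 CPM at 6 µM and 643 ± 20.2 CPM at 0 µM, a log2 fold change of 0.17 (adjusted p = 0.00373 by edgeR). Sfxn2, a sideroflexin, averaged 7.57 ± 0.432 CPM at 6 µM and 10.7 ± 0.537 CPM at 0 µM, a log2 fold change of -0.49 (adjusted p = 0.00335 by edgeR). Mtch1, an outer membrane relative of the carriers, averaged 294 ± 6.35 CPM at 6 µM and 341 ± 28.7 CPM at 0 µM, a log2 fold change of -0.21 (adjusted p = 0.0102 by edgeR). The pyruvate carrier genes Mpc1 and Mpc2 were at -0.31 and -0.15 at 6 against 0 µM (adjusted p = 0.1 and 0.282 by edgeR), and Mpc1 was called without 0 µM replicate 4 (0.0377). By edgeR none of these channels was called at 2 against 0 µM or at 6 against 2 µM, with 3 higher and 2 lower and with 2 higher and 1 lower at an unadjusted p under 0.05. Neither DESeq2 nor limma-voom called one there. Mtch1 was called lower at 2 against 0 µM without 0 µM replicate 1 (adjusted p = 0.0302 by edgeR) and without the 3 libraries (0.0423).

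Of 13 genes that import carriers into the inner membrane, 1 rose at 6 against 0 µM and none fell by edgeR, beside 4.58% and 3.66% of all tested genes, with 2 higher and 1 lower at an unadjusted p under 0.05 and 1 called higher by both DESeq2 and limma-voom. This was Tomm70a, the outer membrane receptor for carrier precursors, at 177 ± 10.5 CPM at 6 µM and 151 ± 5.80 CPM at 0 µM, a log2 fold change of 0.23 (adjusted p = 0.00258 by edgeR). Tomm70a and Timm8a1, a small carrier chaperone of the intermembrane space, rose by 0.18 and 0.30 at 2 against 0 µM (adjusted p = 0.0389 and 0.03 by edgeR). Tomm70a lost this call in 11 alternatives, with adjusted p from 0.0501 to 0.144, and with the replicate block it was 0.0631. Timm8a1 lost it without 0 µM replicate 2, 3 or 4 or 2 µM replicate 1 or 4, with adjusted p from 0.0546 to 0.127. Timm8a1 averaged 35.5 ± 2.75 CPM at 2 µM and 28.7 ± 2.61 CPM at 0 µM.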

How the data were processed

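The authors deposited raw counts of reads in 1 table of 54532 genes and 12 libraries. The submitters' processing notes name HISAT2 and GRCm39 (HISAT2 version, counting program and strand setting not given in the sources used here). Gene positions in the deposited table equal those of GENCODE M21 (GRCm38) for 98.3% of shared genes and 45 of the 48 members, so they are named GRCm38. The deposited gene length, another column of that table, equals the union of exons for 98.0% and gave TPM. Of counts from 1 to 8, 35527 were even and 20988 odd.

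The test was edgeR 4.0.16's, run in R 4.3.3 (TMM, filterByExpr, quasi-likelihood, 1 mean per dose, all 12 libraries, 9 residual degrees of freedom), with limma 3.58.1 (limma-voom) and DESeq2 1.42.0 as alternatives. The filter kept 16038 genes, which limma-voom also used, while DESeq2 took the whole table of 54532 genes. An adjusted p under 0.05 was called. SE is the log2 fold change over the square root of F. The steps were tested on simulated data. Depth ran from 30206155 to 50351082 counts. No pair of libraries of a dose agreed within sampling noise (chi-square per degree of freedom from 8.29 to 17.0).

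Members and lists were chosen with earlier results of these data known. Described in full are called members, Ucp1 to Ucp3 and the 5 most abundant at 0 µM; other carriers with values of their own (Slc25a12, Slc25a24 and Slc25a40 among them), Mpc1 and Mpc2 were chosen after their values were seen. The alternatives for the shuttle, channel and import genes and for members not described in full were added after seeing the data. Ratios of related carriers used CPM with 0.5 added.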

Additional observations from a re-analysis of the deposited data

Results flagged for a closer look

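In 40 sets of 4 libraries (a described member at a dose), 4 had a library set apart from the other 3 by Dixon's test at 95%, and chance flags about 1 in 20. Slc25a42 at 6 µM was 12.3 CPM in replicate 2 against 13.8 to 14 CPM in the others, and Slc25a4 at 0 µM was 712 CPM in replicate 2 against 664 to 668 CPM. Ucp1 was 0.05 CPM in 0 µM replicate 3 and 0.0443 CPM in 2 µM replicate 4, with 0 in the other libraries of those doses, each from 2 counts. Where only 1 library has counts the test flags it whatever its value, so the rate of 1 in 20 does not apply to these Ucp1 sets.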

How the results depend on the processing

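At 6 against 0 µM, where 6 members were called higher and 2 lower, leaving out single libraries gave counts of 4 to 6 higher and 0 to 2 lower. Over all genes these fits called 513 to 789 higher and 398 to 592 lower, against 735 and 587 with all 12 libraries. Without 0 µM replicate 1 the count of 6 held Slc25a24 and not Slc25a39. Only Slc25a34, Ucp2 and Slc25a1 kept the higher call at 6 against 0 µM in every alternative. With upper-quartile scaling, no count filter or only the 2 doses compared, 4 members rose each time. Over all genes 598, 876 and 622 rose with these settings. Without the 3 libraries farthest from their dose mean 4 members and 408 of all genes rose. DESeq2 called 7 members and 1049 of all genes higher. At 2 against 0 µM leaving out single libraries gave 0 to 1 higher and 0 to 1 lower, and at 6 against 2 µM 2 to 3 higher and 0 to 1 lower. Over all genes these fits called 72 to 322 higher and 34 to 168 lower at 2 against 0 µM. At 6 against 2 µM they called 45 to 138 higher and 33 to 121 lower. The lower calls at 6 against 0 µM went to 1 without 0 µM replicate 2 or 4 or 6 µM replicate 3, and to 0 without 6 µM replicate 4 and without the 3 libraries farthest from their dose mean. DESeq2 called 3 members higher at 2 against 0 µM and 4 at 6 against 2 µM. At 2 against 0 µM 1 member, Slc25a12, was lower with upper-quartile scaling, no count filter, a mean count of at least 50, DESeq2 or limma-voom. With the replicate block, 4 members rose and 2 fell at 6 against 0 µM, as Slc25a30 and Slc25a39 missed the threshold (adjusted p = 0.0539 and 0.0598 by edgeR). Numbers did not pair the libraries: none of 12 same-numbered pairs had a correlation of deviations over 0.1, and 2 of 12 libraries correlated best with their own number. The count of 0 related pairs that passed is limited by the number of libraries, as no small number of pairs could have passed after adjustment. It is no measure of stability. No called value turned direction. Over the 39 tested members, the 3 comparisons and all alternatives, 29 values lost a call and 19 gained one; the cause was not tested. Tomm70a and Timm8a1, called higher at 2 against 0 µM, lost the call in 11 and 5 alternatives, and Acly lost its call at 6 against 2 µM in 4. The alternatives for these genes and for members not described in full were added after seeing the data. Depth limits the 9 untested members.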
